A study of Mus musculus with 10 samples.

Results

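The genes of epidermal differentiation and the cornified envelope were examined in grafted mouse skin, 42 genes chosen by name from their place in the program. These genes were chosen with earlier results of these data known. They were read on the array through probe sets with exactly 1 gene symbol, the brightest of each gene over all arrays. Of the 42 genes 40 were measured, out of 18193 genes with such a probe set. Flg2 and Sprr4 were not analysed here.

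All mice were C3H/HeJ recipients that carried a graft of skin from an alopecic C3H/HeJ donor, a model in which alopecia areata (AA), an autoimmune loss of hair, passes to the recipient. The recipients were young adults free of disease when grafted. An implanted osmotic pump delivered the JAK1 and JAK2 inhibitor baricitinib or vehicle from the time of grafting, and skin was taken at week 12. The baricitinib group and the vehicle control group held 5 arrays each, 1 per mouse, so the comparison asked how JAK inhibition begun before disease onset left the epidermal program of the skin.

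Keratinocytes of the basal layer express Krt5 and Krt14. When they leave that layer they switch to Krt1 and Krt10, then fill with keratohyalin proteins such as filaggrin, and at last crosslink loricrin, involucrin and families of small proteins into an envelope that replaces the cell membrane. Transglutaminases make the crosslinks, and proteases and their inhibitors set the pace at which dead cells are shed. Several of these genes are known to respond to inflammation, and some also serve in the hair follicle. In whole skin, fewer cells of a type and less RNA per cell cannot be told apart.

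Of the 16 listed genes that lie on chromosome 3, all neighbours in the cluster called the epidermal differentiation complex, 14 were measured. The upstream windows of 4 of them are shown because these genes lay apart in their differences: Hrnr, Flg and Sprr2d were on the lower side in baricitinib treated skin and Ivl on the higher side. The sequences are the 250 bases before the gene start in RefSeq, build GRCm38.p6, written on the gene's own strand. Hrnr is at chr3:93319499-93319748 on the plus strand, Flg at chr3:93273296-93273545 on the plus strand, Sprr2d at chr3:92338890-92339139 on the plus strand and Ivl at chr3:92573736-92573985 on the minus strand. Capitals mark a TATAAA box or the letters TGANTCA, which the factor AP-1 binds.
Hrnr: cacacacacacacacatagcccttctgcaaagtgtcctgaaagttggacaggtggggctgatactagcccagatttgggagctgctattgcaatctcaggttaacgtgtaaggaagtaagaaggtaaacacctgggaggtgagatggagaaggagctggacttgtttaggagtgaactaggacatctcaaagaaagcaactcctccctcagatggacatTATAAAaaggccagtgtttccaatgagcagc
Flg: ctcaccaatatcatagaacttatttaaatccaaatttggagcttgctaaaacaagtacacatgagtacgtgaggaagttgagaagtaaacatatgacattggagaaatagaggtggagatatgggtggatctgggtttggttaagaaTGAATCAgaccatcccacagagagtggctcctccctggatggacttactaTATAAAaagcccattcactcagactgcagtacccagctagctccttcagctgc
Sprr2d: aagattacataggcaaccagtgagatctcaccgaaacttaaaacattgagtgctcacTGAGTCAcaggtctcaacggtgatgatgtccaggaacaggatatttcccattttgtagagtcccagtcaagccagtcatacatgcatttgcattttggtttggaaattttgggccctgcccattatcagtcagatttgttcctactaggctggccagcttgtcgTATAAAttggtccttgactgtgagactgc
Ivl: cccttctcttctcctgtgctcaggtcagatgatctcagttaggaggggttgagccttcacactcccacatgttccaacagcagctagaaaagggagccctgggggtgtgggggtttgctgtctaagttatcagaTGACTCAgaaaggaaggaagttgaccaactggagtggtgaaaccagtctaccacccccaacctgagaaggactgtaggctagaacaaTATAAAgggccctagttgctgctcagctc

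AP-1 is a well known activator of late epidermal genes. Searched on both strands in windows from 250 bases before to 50 after the start, the AP-1 letters TGANTCA stood in 11 of 35 listed genes with a window and in 7.93% of 27025 promoters. They were found upstream of Flg, Sprr2d and Ivl and not in the window of Hrnr. The TATAAA letters on the gene's strand stood in 12 of the 35 and in 8.88% of all promoters. The letters TTCNNNGAA, bound by STAT factors, stood in 2 of the 35 (Cdsn and Tgm1) and in 8.47% of all promoters, and an interferon response motif (a pair of GAAA runs set 2 bases apart) in 1 (Tgm1) and in 3.49%. The letters AACCGGTT, bound by grainyhead factors, stood in 0 of the 35 and in 0.152% of promoters. A match describes letters only. Both Flg, on the lower side, and Ivl, on the higher side, carried the AP-1 letters, but the genes shown were chosen for their opposite differences. Whether the letters go with a direction of difference over the list was not tested.

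Values are log2 expression after RMA, and differences are baricitinib minus vehicle on that scale. Vehicle replicate 5 stood apart from the other arrays, with a median correlation of 0.705 against 0.959 to 0.981, and was the lowest of all 10 arrays for 20 of the 40 genes. The study's methods left out 1 vehicle array that the labels do not name. The main differences are therefore given with all arrays and without vehicle replicate 5. RNA quality was read from 2 control genes, Gapdh and beta-actin, as the excess of their 3' over their 5' probe sets, a gap that is wider in degraded RNA. The gap was 0.99 to 1.18 in baricitinib arrays and 3.03, 2.0, 4.35, 1.01 and 4.06 in vehicle replicates 1 to 5, so vehicle replicate 4 was the 1 vehicle array in the baricitinib range. The keratinocyte marker Krt5 was at 13.04 to 13.67 over all arrays, whereas Krt2, a keratin of the upper spinous layer, and Sprr3 stayed below 4 log2.

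The genes of the program did not lie on 1 side. Hrnr and Flg of the filaggrin family, the suprabasal keratin Krt1 and the 6 late cornified envelope genes among the 40 had lower means in baricitinib treated skin, while Ivl, Trp63 and Grhl1 had higher means, whether or not vehicle replicate 5 was kept. With the RNA quality gap as a covariate Trp63, Ivl and Grhl1 differed by 0.0055, 0.0015 and 0.19. Hrnr, Flg and Krt1 then differed by -1.20, -1.23 and -1.03. With all arrays and no covariate, none of the 40 genes passed limma with adjustment over all probe sets (smallest adjusted p = 0.221), where 0% of 45037 probe sets passed. At an unadjusted p under 0.05 there were 8 of 40 genes (20%), 5 lower and 3 higher, against 14.8% of all probe sets (5.62% lower and 9.21% higher). Without vehicle replicate 5 there were 18 (45.0%), 15 lower and 3 higher, against 27.9% of all probe sets (13.5% lower and 14.4% higher), and again 0 after adjustment (smallest adjusted p = 0.0733, and 0% of all probe sets).

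With all arrays 23 of the 40 genes had a negative difference, as did 55.4% of all probe sets, and the median difference was -0.08 beside -0.07 over all probe sets. Without vehicle replicate 5 it was 32 genes against 54.9% of probe sets, and the median was -0.38 beside -0.04. The sign of 11 genes depended on that array. The groups did not overlap for 1 gene with all arrays (2.50%, against 5.12% of all probe sets) and for 5 without that array (12.5%, against 8.53%), each lower in baricitinib treated skin. Of all probe sets 2.03% and 4.11% were apart in that direction and 3.09% and 4.42% in the other. Under other settings the count of genes past the adjusted threshold was 0 without vehicle replicate 4 (1.88% of all probe sets), 12 with array quality weights (21.5%), 12 with weights and without vehicle replicate 5 (17.5%), and 9 relative to Krt5 and Krt14 without that array (20.5%).

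**Figure D1:**
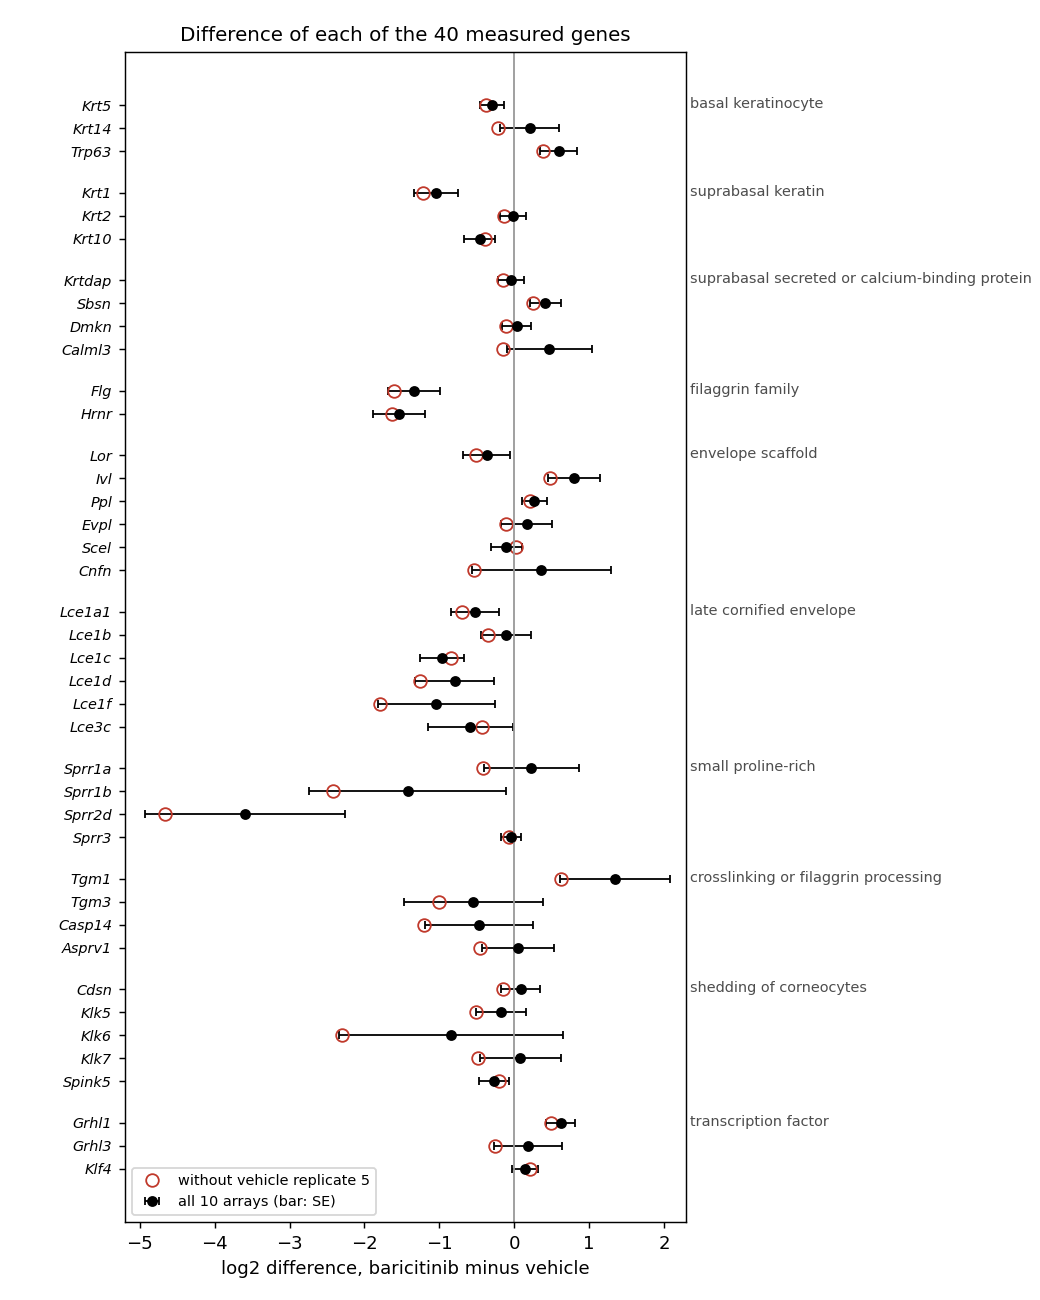
Log2 difference, baricitinib minus vehicle, of each of the 40 measured genes by role, with all 10 arrays (filled, bar for SE) and without vehicle replicate 5 (open). The 6 late cornified envelope genes and both filaggrin family genes lay left of 0 in either fit, and Sprr2d lay farthest left at -3.60 and -4.66.

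Hrnr encodes hornerin, a filaggrin-like protein of the granular and cornified layers. It was at 9.83, 9.81, 10.91, 11.10 and 11.17 log2 in baricitinib replicates 1 to 5 and at 12.37, 12.12, 12.75, 11.55 and 11.73 in vehicle replicates 1 to 5. Every baricitinib array lay below every vehicle array, and it was the only one of the 40 genes to do so with all 10. The difference was -1.54 ± 0.35 (SE), a 2.91-fold lower value, with a limma adjusted p of 0.221, and -1.63 without vehicle replicate 5 (limma adjusted p = 0.0737).

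Flg encodes profilaggrin, which is cut into the filaggrin that bundles keratin filaments and later becomes natural moisturizing factor. Its values were 9.91, 10.28, 10.37, 10.26 and 10.90 in baricitinib replicates 1 to 5 and 11.98, 11.51, 12.65, 11.64 and 10.64 in vehicle replicates 1 to 5. The groups overlapped only through vehicle replicate 5. Means were 10.34 ± 0.36 and 11.68 ± 0.73 (SD, n = 5 each), and the difference was -1.34 ± 0.34 (SE, limma adjusted p = 0.224) or -1.6 without that array (limma adjusted p = 0.0733). Casp14, a protease that degrades filaggrin, differed by -0.48 with all arrays and by -1.20 without vehicle replicate 5, and Asprv1, which cleaves profilaggrin, by 0.05 and -0.45.

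**Figure D2:**
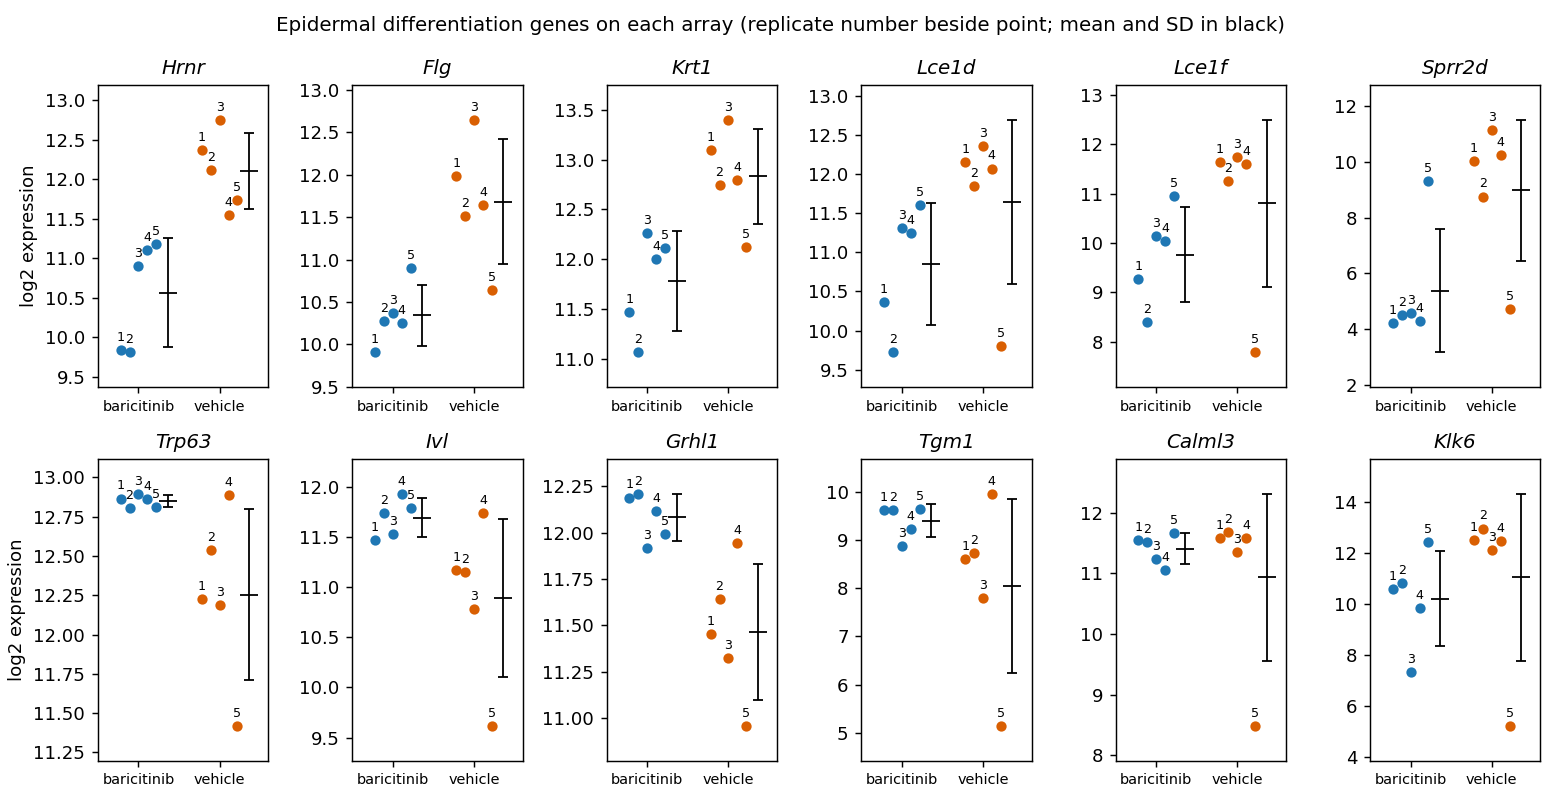
Log2 expression of 12 genes on each baricitinib (blue) and vehicle (orange) array, with the replicate number above each point and the mean ± SD in black (n = 5). Hrnr was lower on all 5 baricitinib arrays, and vehicle replicate 5 was the lowest vehicle array for 11 of the 12 genes, all but Hrnr.

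Krt1, the keratin that marks exit from the basal layer, was at 11.47, 11.07, 12.26, 12.00 and 12.12 in baricitinib replicates 1 to 5. In vehicle replicates 1 to 5 it was at 13.09, 12.74, 13.40, 12.80 and 12.12. Again only vehicle replicate 5 reached the baricitinib range. The difference was -1.05 ± 0.30 (SE), 2.07-fold, with a limma adjusted p of 0.230, and -1.22 without that array (limma adjusted p = 0.0733). Its partner Krt10 differed by -0.46 and -0.39, with overlap between groups in either case. Krt2 differed by -0.01 at values near the low end of the arrays.

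Of the basal genes, Krt5 differed by -0.30 with all arrays and by -0.37 without vehicle replicate 5. Krt14 gave 0.21 and -0.21 by its brightest probe set, and its 3 probe sets ranged from 0.21 to 1.18 with all arrays and from -0.35 to 0.09 without that array, so its direction was not settled. Trp63 encodes p63, the factor that maintains basal keratinocytes. It was at 12.87, 12.80, 12.90, 12.86 and 12.81 in baricitinib replicates 1 to 5 and at 12.23, 12.54, 12.19, 12.89 and 11.42 in vehicle replicates 1 to 5. Vehicle replicate 4 lay inside the narrow baricitinib range and the other vehicle arrays below it. The difference was 0.59 ± 0.24 (SE, limma adjusted p = 0.312), or 0.39 without vehicle replicate 5 (limma adjusted p = 0.134), and the 3 dimmer probe sets gave 0.16 to 0.85.

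All 6 late cornified envelope genes of this list had negative differences, from -1.04 to -0.11 with all arrays (median -0.69) and from -1.79 to -0.35 without vehicle replicate 5 (median -0.77). These genes encode small cysteine-rich proteins added last to the envelope. Lce1f was at 9.26, 8.4, 10.14, 10.05 and 10.95 in baricitinib replicates 1 to 5 and at 11.63, 11.25, 11.73, 11.61 and 7.78 in vehicle replicates 1 to 5. Vehicle replicates 1 to 4 thus lay above all baricitinib arrays and vehicle replicate 5 below them. The difference of -1.04 ± 0.78 (SE, limma adjusted p = 0.479) became -1.79 without that array (limma adjusted p = 0.0760). A second Lce1f probe set gave -1.67 and -2.28.

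Lce1d was at 10.37, 9.72, 11.31, 11.25 and 11.60 in baricitinib replicates 1 to 5 and at 12.15, 11.85, 12.35, 12.07 and 9.80 in vehicle replicates 1 to 5. Vehicle replicates 1 to 4 again lay above all baricitinib arrays, and vehicle replicate 5 lay among the lowest. Its difference was -0.79 ± 0.53 (SE, limma adjusted p = 0.448), or -1.26 without that array (limma adjusted p = 0.0866). Lce1c differed by -0.96 and -0.84, Lce1a1 by -0.52 and -0.70, Lce3c by -0.58 and -0.43, and Lce1b by -0.11 and -0.35. The late cornified envelope genes are near copies of each other, and the probe sets of Lce1a1, Lce1d and Lce3c are of a type that can match several transcripts, so the values of single genes in this family are uncertain.

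The small proline-rich proteins, flexible bridges in the envelope that many barrier stresses induce, gave the widest spread. Sprr2d was at 4.21, 4.52, 4.59 and 4.28 in baricitinib replicates 1 to 4 and at 9.32 in baricitinib replicate 5. The vehicle arrays read 10.01, 8.76, 11.14, 10.26 and 4.74 in replicate order. Replicate 5 of each group sat near the level of the other group. The low values were below 5 log2, near the low end of the arrays, so no fold is given. The difference was -3.60 ± 1.34 (SE), with a limma adjusted p of 0.282, and -4.66 without vehicle replicate 5 (limma adjusted p = 0.0737). Summed T cell markers were likewise highest at replicate 5 among baricitinib arrays (12.22, the others 9.95 to 11.57) and lowest at replicate 5 among vehicle arrays (10.38, the others 12.26 to 12.78). Their part in the Sprr2d values was not tested. Sprr1b differed by -1.42 and -2.42 and Sprr1a by 0.23 and -0.42.

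The scaffold of the envelope was divided. Ivl encodes involucrin, an early scaffold protein to which others are attached. It was at 11.46, 11.74, 11.53, 11.93 and 11.79 in baricitinib replicates 1 to 5 and at 11.17, 11.15, 10.78, 11.74 and 9.62 in vehicle replicates 1 to 5. All vehicle arrays but replicate 4 lay below the baricitinib range. The difference was 0.80 ± 0.34 (SE, limma adjusted p = 0.322), or 0.48 without vehicle replicate 5 (limma adjusted p = 0.140), and a second probe set gave 1.11 and 0.74. Lor, encoding loricrin, the main protein mass of the mature envelope, went the other way with -0.37 and -0.51. The plakin genes Ppl and Evpl, which tie the envelope to keratin filaments and desmosomes, differed by 0.27 and 0.17 (0.21 and -0.10 without vehicle replicate 5). Scel, encoding sciellin, an envelope precursor, differed by -0.11 and 0.02.

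Enzymes of crosslinking and shedding were mostly unsettled. Tgm1, the membrane-bound transglutaminase that builds the envelope, was at 9.61, 9.62, 8.88, 9.23 and 9.65 in baricitinib replicates 1 to 5 and at 8.61, 8.74, 7.79, 9.96 and 5.15 in vehicle replicates 1 to 5. Vehicle replicate 4 was the highest array and vehicle replicate 5 far the lowest. The difference of 1.35 ± 0.74 (SE, limma adjusted p = 0.392) became 0.62 without vehicle replicate 5 (limma adjusted p = 0.294). With the RNA quality gap as a covariate it was -0.48, so its direction was not settled.

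Klk6, a kallikrein protease, was at 10.57, 10.83, 7.34, 9.85 and 12.43 in baricitinib replicates 1 to 5 and at 12.49, 12.96, 12.12, 12.47 and 5.21 in vehicle replicates 1 to 5. Vehicle replicate 5 was the lowest array of all, and baricitinib replicate 5 reached the level of the other vehicle arrays. Its difference was -0.85 ± 1.5 (SE, limma adjusted p = 0.740), or -2.30 without vehicle replicate 5 (limma adjusted p = 0.120). It was -0.13 without baricitinib replicate 3 and -0.37 without vehicle replicate 2, so its size rested on single arrays. Klk5 and Klk7, the proteases that cut the bonds between dead cells, differed by -0.18 and 0.08 with all arrays and by -0.51 and -0.49 without that array. Their inhibitor gene Spink5 differed by -0.27 and -0.20, and Cdsn, encoding the corneodesmosin they digest, by 0.09 and -0.15.

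Among the transcription factors Grhl1 had the largest difference. It encodes a grainyhead factor of epidermal barrier and desmosome genes, and was at 12.19, 12.21, 11.91, 12.12 and 11.99 in baricitinib replicates 1 to 5 and at 11.45, 11.64, 11.32, 11.95 and 10.96 in vehicle replicates 1 to 5. Vehicle replicate 4 lay just inside the baricitinib range and the other vehicle arrays below it. The difference was 0.62 ± 0.19 (SE, limma adjusted p = 0.240), or 0.49 without vehicle replicate 5 (limma adjusted p = 0.0866). Grhl3, an activator of Tgm1, differed by 0.18 and -0.26, and Klf4, a factor required for the barrier, by 0.14 and 0.21.

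The remaining suprabasal genes encode secreted proteins (Krtdap, Sbsn and Dmkn) and a calmodulin-like protein (Calml3). Calml3 was at 11.56, 11.52, 11.24, 11.05 and 11.67 in baricitinib replicates 1 to 5 and at 11.58, 11.68, 11.36, 11.59 and 8.48 in vehicle replicates 1 to 5. Vehicle replicate 5 was far the lowest array and the others were level. Its difference of 0.47 ± 0.57 (SE, limma adjusted p = 0.622) thus rested on 1 array and was -0.14 without it (limma adjusted p = 0.530). Krtdap and Dmkn differed by -0.04 and 0.03 (-0.15 and -0.11 without that array), and Sbsn by 0.42 and 0.25.

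**Figure D3:**
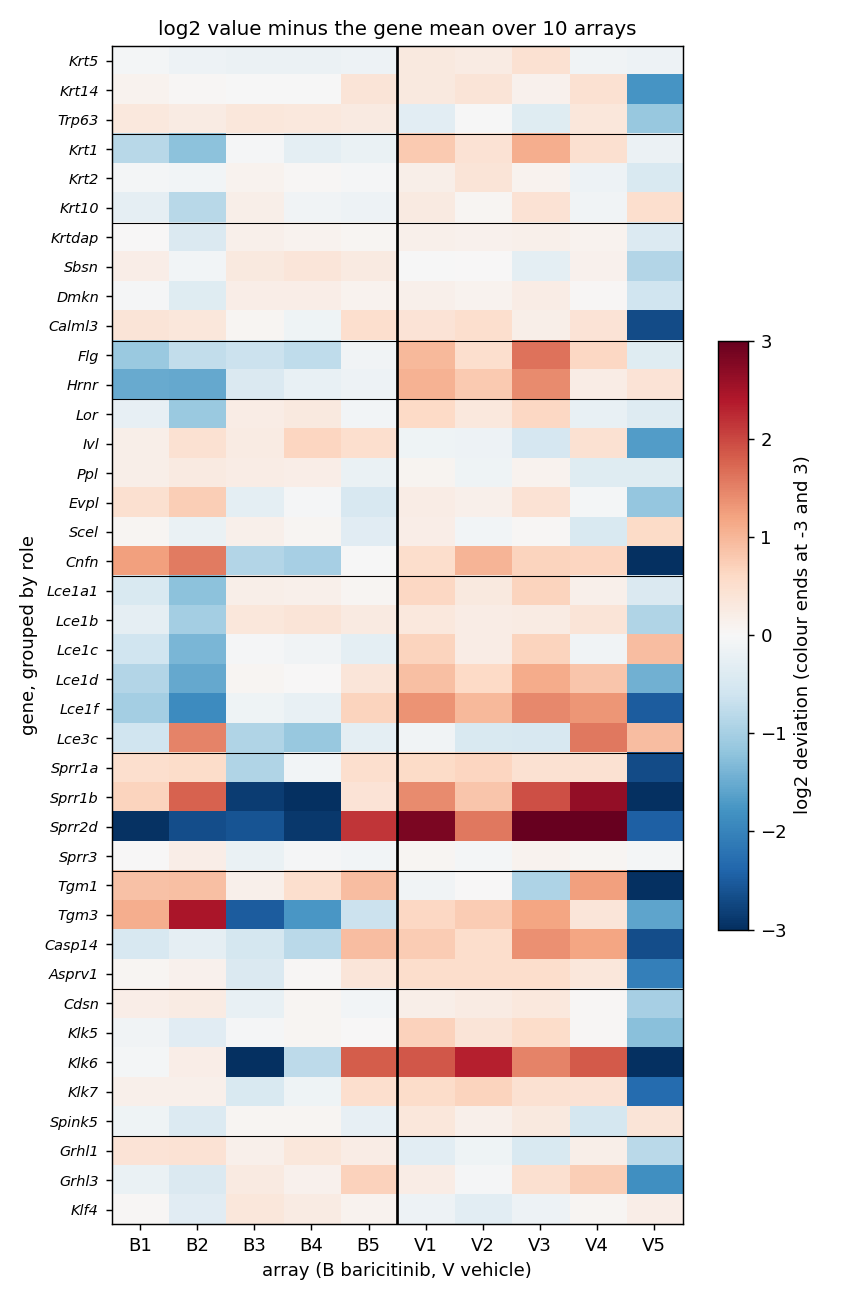
Log2 value of each gene on each array (B1 to B5 baricitinib, V1 to V5 vehicle) after subtraction of that gene's average (blue below it, red above it, colour ending at 3 log2 either way), with lines between roles. Sprr2d was low in B1 to B4 and V5, and the Lce1 genes were lowest among baricitinib arrays in B1 and B2.

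By place in the genome, 12 of the 14 measured genes on chromosome 3 had a negative difference (median -0.69), against 11 of the 26 elsewhere (median 0.07). Without vehicle replicate 5 these counts were 13 of 14 (median -0.77) and 19 of 26 (median -0.18). Ivl was the exception in both fits, joined by Sprr1a with all arrays. The genes of the cluster include the near copies above, which are not independent, and the contrast between places was not tested.

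Vehicle replicate 4 was the vehicle array whose gap, 1.01, was in the baricitinib range. Of the 23 genes with a negative difference it lay above all baricitinib arrays for 10, within their range for 10 and below them for 3. Of the 17 with a positive difference these counts were 3, 13 and 1. Hrnr, Flg, Krt1, Lce1d and Lce1f were among the 10 above, which the choice of these genes fixed, since they were given by array because their groups were apart without vehicle replicate 5. The rest of the 10 were Sprr2d, Sprr1b, Casp14, Lce3c and Klk6, whose groups overlapped without vehicle replicate 5. Lce3c was at 10.25 against at most 10.14 in baricitinib arrays, and Klk6 at 12.47 against at most 12.43. Lce1a1, Lce1b, Lce1c, Krt10, Lor and Klk5 were among the 10 within the range, as were Trp63, Ivl and Grhl1 among the 13. The part of RNA quality in the differences was not tested beyond the covariate fit. With the gap as a covariate the differences were -1.20 for Hrnr, -1.23 for Flg and -1.03 for Krt1, and 0.0055, 0.0015 and 0.19 for Trp63, Ivl and Grhl1. None passed (limma adjusted p = 1 for each), and the slope was set mainly by vehicle arrays, given the narrow range of gaps in the baricitinib group. Within vehicle replicates 1 to 4 the widest gap went with the highest Hrnr, Flg and Krt1 values and with the lowest Trp63, Ivl and Grhl1 values.

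**Figure D4:**
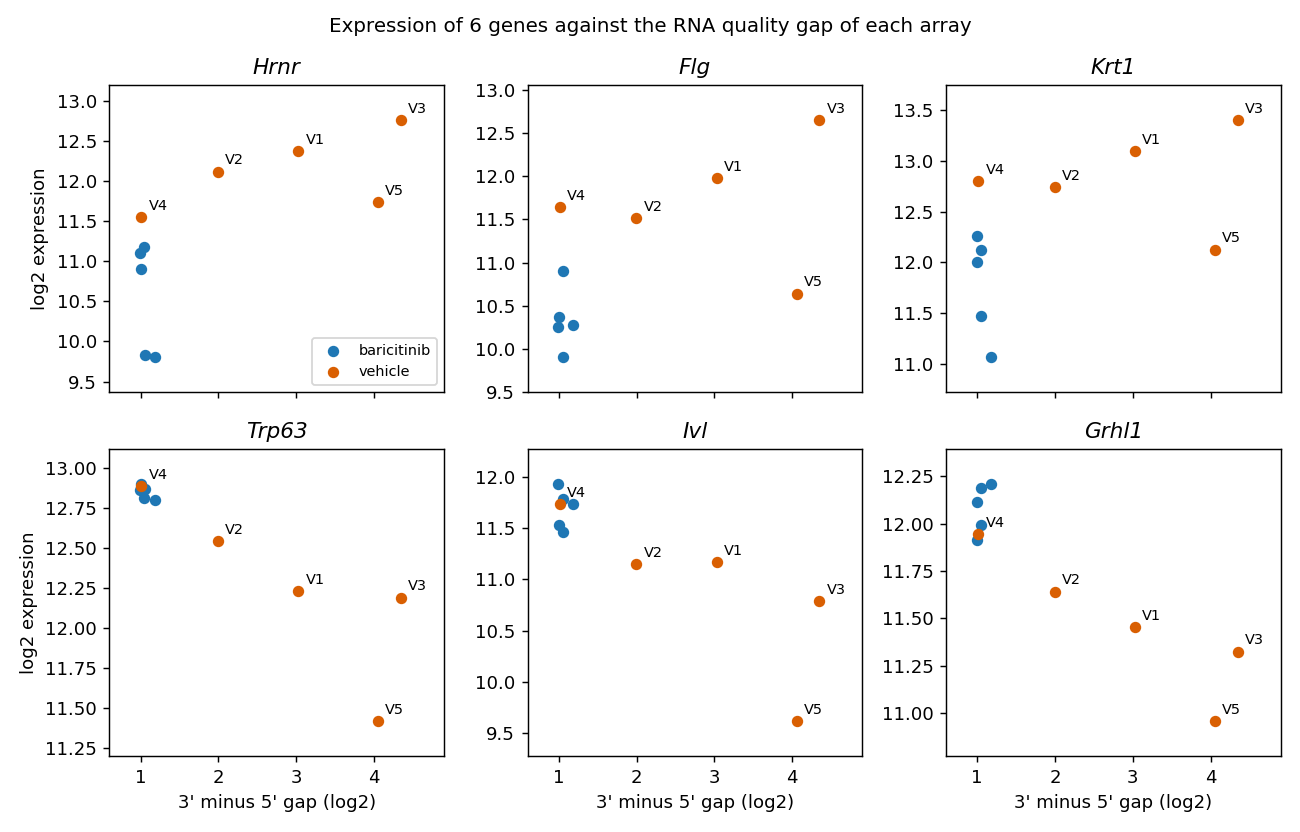
Log2 expression of 6 genes against the 3' minus 5' gap of each array in log2, which is wider in degraded RNA, for baricitinib (blue) and vehicle (orange) arrays. At a gap of 1.01 vehicle replicate 4 (V4) lay above all baricitinib arrays for Hrnr, Flg and Krt1, as the choice of these 3 genes required, and among them for Trp63, Ivl and Grhl1.

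Some genes of the list varied within the baricitinib group more than between groups. Cnfn (cornifelin, an envelope protein) was at 11.23, 11.57, 9.13, 9.01 and 9.99 in baricitinib arrays by replicate number. Tgm3, a transglutaminase of both epidermis and hair follicle, was at 10.47, 11.83, 6.88, 7.62 and 8.73 in the same arrays, and Sprr1b at 10.34, 11.45, 6.83, 6.10 and 10.08. The summed level of 8 hair shaft keratins ran in a like order in these arrays, at 15.60, 15.85, 10.48, 12.76 and 14.61. Vehicle replicates 1 to 4 shared that order only in part. Among them replicate 4 had the most hair keratin (15.02) and the most Sprr1b (12.31). It had the least Tgm3 by the brightest probe set (9.74) and the most by the second (8.45), while Cnfn was at 10.54 to 11.02. Vehicle replicate 5 was the lowest vehicle array for all of them. These 3 genes were chosen after their values were seen, and the part of hair follicle RNA in them was not tested. Krt1 was lowest in baricitinib replicates 1 and 2, where these 3 genes were highest or nearly so. The 2 probe sets of Tgm3 gave -0.54 and 0.27, so its direction between groups was not settled.

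**Figure D5:**
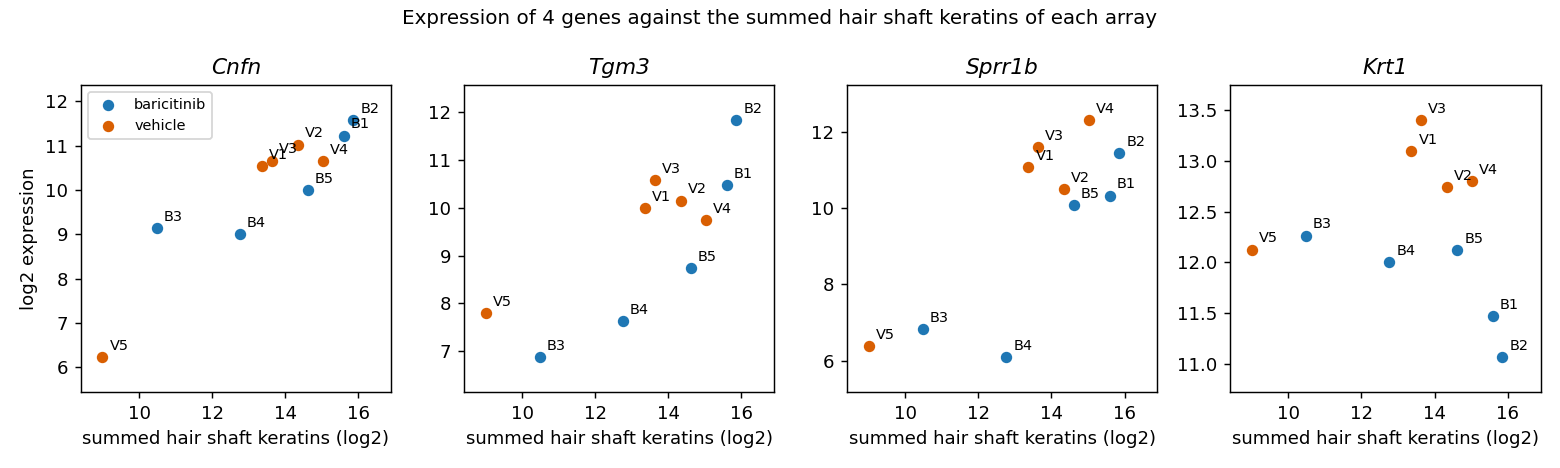
Log2 expression of Cnfn, Tgm3, Sprr1b and Krt1 against the log2 of the summed values of 8 hair shaft keratins on each baricitinib (blue) and vehicle (orange) array. B3 and B4 had less hair keratin and less Cnfn, Tgm3 and Sprr1b than B1 and B2, while Krt1 was highest in B3 among baricitinib arrays.

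Other tissue parts also differed in level. Summed adipocyte markers were at 13.18 to 14.28 in baricitinib and 12.41 to 13.55 in vehicle arrays, with 5 of 5 measured genes higher in mean. Skeletal muscle markers were at 14.54 to 15.68 and 13.63 to 15.03 (6 of 7 higher), dermal fibroblast markers at 14.39 to 15.11 and 14.07 to 14.53 (6 of 7), and sebocyte markers at 13.38 to 13.71 and 13.20 to 13.65 (5 of 5). Hair shaft keratins spanned 10.48 to 15.85 and 9.0 to 15.02 (8 of 8 higher with all arrays and 2 of 8 without vehicle replicate 5). T cell markers were at 9.95 to 12.22 and 10.38 to 12.78 (1 of 6 higher), and macrophage markers at 13.06 to 13.59 and 13.31 to 13.77 (4 of 6). Without vehicle replicate 5 the groups were apart for 2 lists. The sebocyte sum was at 13.20 to 13.36 in vehicle arrays, below every baricitinib array. The T cell sum was at 12.26 to 12.78, above every baricitinib array, with 0 of 6 genes higher in baricitinib. The sums of the other lists still overlapped. No marker was below 5 log2 on every array. The part of tissue composition in the epidermal differences was not tested. Relative to the mean of Krt5 and Krt14 on the same array, the differences of Hrnr, Flg and Krt1 were -1.49, -1.30 and -1.0 and those of Trp63, Ivl and Grhl1 0.64, 0.85 and 0.66. Without vehicle replicate 5 they were -1.34, -1.31 and -0.93, and 0.68, 0.77 and 0.78. In that fit Krt5 and Krt14 themselves differed by -0.37 and -0.21, which moves the relative difference of every gene upward by the same amount.

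A further list of 100 epidermal genes outside the 42 was measured for 86, of which 0 passed limma with adjustment over all probe sets in either fit. An unadjusted p under 0.05 was found for 15 (17.4%, beside 14.8% of all probe sets), 8 lower and 7 higher. Without vehicle replicate 5 there were 24, 18 lower and 6 higher, a share of 27.9% that was also the share of all probe sets. Negative differences were seen for 34 of the 86 (39.5%, against 55.4% of all probe sets, median 0.19), and for 51 without vehicle replicate 5 (59.3%, against 54.9%, median -0.13). Of 9 basal layer and hemidesmosome genes 3 were negative (median 0.13, and 0.17 without that array). Of 32 further envelope and granular layer genes 17 were negative (median -0.08), and 24 without that array (median -0.37). The 23 differentiation regulators had medians of 0.26 and -0.01, and the 22 further crosslinking, processing and shedding genes 0.40 and -0.03.

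The largest negative differences outside the 42 genes were again in late envelope genes and a kallikrein. Neither family lay on 1 side in the further list. Lce1m differed by 0.44 with all arrays and by 0.34 without vehicle replicate 5, and Klk10 by 1.06 and 0.31. Lce1i differed by -1.43 and -1.93, and Klk9 by -0.86 and -1.26. Lce3f was at 3.92, 4.27, 4.0, 4.13 and 5.81 in baricitinib replicates 1 to 5 and at 8.60, 7.24, 9.44, 8.75 and 4.87 in vehicle replicates 1 to 5, so that the groups overlapped only at replicate 5 of each. The difference was -3.35 ± 0.79 (SE, limma adjusted p = 0.222), or -4.08 without vehicle replicate 5 (limma adjusted p = 0.0733). Baricitinib replicates 1 to 4 and vehicle replicate 5 were below 5 log2, near the low end of the arrays, so the size of this difference is uncertain. Lce1h was at 7.49, 7.0, 8.31, 7.78 and 8.63 in baricitinib arrays and at 11.16, 10.13, 11.76, 10.16 and 7.56 in vehicle arrays, which differ by -2.31 ± 0.70 (SE, limma adjusted p = 0.237), or by -2.96 without vehicle replicate 5 (limma adjusted p = 0.0733). Klk13 was at 8.28, 9.67, 5.96, 5.73 and 9.45 and at 10.42, 10.60, 11.49, 10.04 and 9.15, a difference of -2.52 ± 0.83 (SE, limma adjusted p = 0.252), or -2.82 without vehicle replicate 5 (limma adjusted p = 0.0942). For all 3, chosen for the size of their differences, the groups were apart without vehicle replicate 5. That held for 11 of the 86 further genes (12.8%, against 8.53% of all probe sets), 10 lower and 1 higher. The higher one was Krt23, which differed by 0.75 with all arrays and by 0.59 without that array. With all arrays 3 of the 86 were apart (3.49%, against 5.12% of all probe sets), 2 lower and 1 higher.

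The largest positive differences were in Pou2f3, Ly6d and Lypd5. Pou2f3, a POU-domain factor of keratinocyte differentiation, was at 6.35, 5.43, 7.06, 7.26 and 6.59 in baricitinib replicates 1 to 5 and at 4.51, 4.86, 4.11, 6.29 and 3.95 in vehicle replicates 1 to 5. Vehicle replicate 4 was again the vehicle array inside the baricitinib range. The difference was 1.80 ± 0.48 (SE, limma adjusted p = 0.227), or 1.6 without vehicle replicate 5. The other vehicle arrays were below 5 log2, near the low end of the arrays, so the size of this difference is uncertain. Lypd5, encoding a surface protein of the Ly6 family, was at 8.89, 8.78, 7.94, 8.50 and 8.24 in baricitinib replicates 1 to 5. In vehicle replicates 1 to 5 it was at 6.95, 7.50, 6.93, 8.06 and 4.99. It differed by 1.58 ± 0.50 (SE, limma adjusted p = 0.244), or 1.11 without vehicle replicate 5. Ly6d, another Ly6 gene of keratinocytes, was at 12.52, 12.05, 12.71, 12.89 and 13.09 in baricitinib replicates 1 to 5. In vehicle replicates 1 to 5 it was at 11.75, 12.47, 10.57, 13.11 and 7.06. It differed by 1.66 ± 0.97 (SE, limma adjusted p = 0.412), which became 0.68 without vehicle replicate 5, far the lowest array.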

How the data were processed

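RNA from the skin of 10 mice, amplified with a NuGen system, was read on Affymetrix whole-genome mouse arrays. The authors deposited log2 values for each probe set after RMA, named in the submitters' processing notes and applied to this experiment alone (RMA version not given in the sources used here). RMA equalises the arrays' distributions, so a weak array appears as shifts of single genes. Precision is limited by the 5 arrays per group. Groups and replicate numbers came from the sample titles.

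Of 45101 probe sets 64 controls were set aside, leaving 45037. A single gene symbol was given for 34945, several for 932 and none for 9160. Names followed the platform annotation, and 0 differed from RefSeq by gene identifier. A gene was read by its brightest probe set. Of the 40 measured genes 11 had more than 1 probe set.

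The test between groups was limma's (lmFit, then eBayes; limma version 3.58.1, R version 4.3.3), two-sided and without a filter. Its p-values were adjusted by Benjamini-Hochberg over the 45037 probe sets at a threshold of 0.05, and the calculation was checked on simulated data. These p-values set each difference against the spread between arrays within the groups. That spread is not between mice alone, since the arrays also differed in RNA quality. The genes and lists were chosen with earlier results of these data known. Values by array were given for genes whose groups did not overlap in either fit, for genes past the threshold, and for the largest difference of each role, 12 genes in all, and for the 3 largest differences in each direction of the further epidermal list. Marker lists were summed on the linear scale and given as log2. Alternatives were arrays left out, array quality weights, a replicate block, the RNA gap as a covariate, a filter at 5 log2, other probe sets, other normalizations, other eBayes settings and values relative to Krt5 and Krt14. Combinations of 3 of these with vehicle replicate 5 left out were added after seeing the data.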

Additional observations from a re-analysis of the deposited data

Results flagged for a closer look

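For the genes given by array and the median of the 40 genes, 44 groups of 5 arrays were examined for 1 array far from the others, by the gap to its neighbour as a share of the group's range (critical value 0.71). Chance passes about 1 in 20 groups that are independent and not chosen by their values. Here 8 passed, but most of these genes were chosen by their values and all share the same arrays. The count is therefore not set against that rate. In 6 the array was vehicle replicate 5, low for Calml3 (0.898), Lce1d (0.803), Lce1f (0.877), Klk6 (0.892), Cnfn (0.900) and the median of the 40 genes (0.760). In the other 2 it was baricitinib replicate 5, high for Sprr2d (0.927) and Lce3f (0.815).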

How the results depend on the processing

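The median difference stayed negative under every alternative run (-0.48 to -0.03), and the number of genes with a negative difference was 20 to 32, or 18 of the 31 genes left without probe sets that can match several transcripts and 21 with dim probe sets removed. The median over all probe sets was also negative, at -0.07 with all arrays and -0.04 without vehicle replicate 5. With each array left out in turn the median of the 40 genes was -0.38 (without vehicle replicate 5) to -0.03. The number of them with a negative difference was 20 to 32, and 0 of the 40 genes passed the threshold. The further epidermal genes past it were 0 to 3 (3 without vehicle replicate 4), all probe sets 0 to 848 (848 when vehicle replicate 4 was left out, 12 when baricitinib replicate 5 was), and genes whose groups did not overlap 1 to 7 (7 without vehicle replicate 4). That last count was 3 after cyclic loess, after quantile normalization and relative to Krt5 and Krt14. Array quality weights were 0.029 for vehicle replicate 5, 0.497 for vehicle replicate 4 and 1.09 to 5.43 for the other arrays. Vehicle replicate 4, the vehicle array with a gap in the baricitinib range, thus had the next lowest weight. The weighted fit called 12 of the 40 genes, 20 further epidermal genes and 9676 probe sets (21.5%). The 12 were Krt5, Krt1, Flg, Hrnr, Lce1c, Lce1d, Lce1f, Sprr2d, Casp14 and Klk5, lower, and Trp63 and Grhl1, higher. With vehicle replicate 5 left out as well the calls were 12, 16 and 7869 (17.5%), and relative to Krt5 and Krt14 without that array 9 of 38 genes (20.5% of probe sets) passed and 7 did not overlap. The cause of these changes was not tested. With 1 array left out Klk6 ranged from -2.30 to -0.13, Lce1d from -1.26 to -0.51, Lce1f from -1.79 to -0.70 and Tgm1 from 0.62 to 1.83. Calml3 ranged from -0.14 to 0.66, negative without vehicle replicate 5, and was negative with weights (-0.10, and -0.13 without that array) and with the gap covariate (-0.46 and -0.25), and Tgm1 with the gap covariate (-0.48 and -0.27). Without vehicle replicate 5 the covariate left -1.14, -1.10 and -0.95 for Hrnr, Flg and Krt1 and 0.058, 0.090 and 0.22 for Trp63, Ivl and Grhl1. The replicate numbers did not pair the arrays (same-numbered arrays correlated at -0.23 to 0.09 in their deviations from group means, and 1 of 5 matched its own number best), and the replicate block called 0 of the 40 genes, with a median difference of -0.08. The settings that combine 2 changes were chosen after seeing the data.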

Other observations

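Outside the lists used here, the 5 genes whose values over the 10 arrays were closest to the median of the 40 epidermal genes were Fnbp4, Rnps1, Zbtb7a, Brip1os and Shmt2 (Pearson r of 0.983, 0.981, 0.978, 0.974 and 0.974). They were chosen for this likeness, and the median of the 40 genes was lowest on vehicle replicate 5. Over the other 9 arrays r was 0.949, 0.944, 0.970, 0.922 and 0.963.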
